A study of Mus musculus with 6 samples.

Results

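Transcript levels of 9 transcription factor genes of the early post-implantation epiblast, Pou3f1, Foxd3, Zic2, Zic5, Sall2, Sox3, Sox4, Sox11 and Utf1, were compared between mouse embryos cultured in narrow and in wide cavities. The genes were chosen by name, with earlier results of these data known. All 9 were measured, and they are 9 of the 19938 genes tested. For each gene the array feature naming that gene alone with the highest mean signal over the 6 arrays was used. Narrow cavities were 90 µm and wide cavities 180 µm in diameter. Embryos came from CD1 mice, which are outbred. They were collected at embryonic day 5.0 and cultured for 8 hours. Each group had 3 samples, here called narrow 1 to 3 and wide 1 to 3, and each sample pooled 30 whole embryos, with no genotype or drug that set the groups apart. The labels call the samples biological replicates, and p-values measure the spread between pools and not between single embryos. No freshly collected or uncultured embryos were analysed here, so both groups carry whatever culture itself did. In pools of whole embryos, fewer epiblast cells and less RNA per cell cannot be told apart.

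Values are log2 signals of an Affymetrix Mouse Gene array, normalized between arrays before deposit. They ran from 4.33 to 14.31 over the table, array medians lay between 7.62 and 7.67, and the lowest correlation between any pair of arrays, taken over genes, was 0.998. Marker genes of the labelled tissue were looked up. All 5 epiblast markers, 6 of 7 extraembryonic ectoderm markers and all 10 visceral endoderm markers lay above the median signal of all genes, beside 3 of 10 neural and neural crest markers, 3 of 7 decidua and stroma markers and 1 of 6 blood and macrophage markers. Signals depend on each feature's probes and no measure of background came with them, so such a place in the range describes the array feature and does not show that a gene is expressed or absent.

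As the embryo implants, the epiblast leaves naive pluripotency. It forms an epithelial cup that still expresses core pluripotency factors but adds a new set of regulators, among them Pou3f1, which replaces part of the naive programme and marks cells that can go on to form all germ layers. Several of the 9 genes are used again later, in the neural plate and neural crest. The families they belong to bind DNA through a POU domain (Pou3f1), a forkhead domain (Foxd3), zinc fingers (Zic2, Zic5, Sall2) or an HMG box (Sox3, Sox4, Sox11), whereas Utf1 binds chromatin and is known for its close tie to pluripotent cells.

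None of the 9 genes differed between cavities after adjustment over all genes. By limma with Benjamini-Hochberg adjustment, 0 of 9 members and 0% of all genes passed an adjusted p of 0.05, and adjusted p was 1.00 for each member. At an unadjusted limma p under 0.05 there was 1 member, Sox4, against 3.4% of all genes. With the replicate number as a block it was again Sox4, against 7.25% of all genes, and a test per gene with unequal variances gave 0 members, against 2.39%. Two-sided exact permutation tests of 3 against 3 pools cannot reach a p below 0.1. The median difference over the 9 members, narrow minus wide, was -0.0016 on the log2 scale, and the median over all genes was 0.0011. In size alone, without regard to sign, the members had a median difference of 0.018, against 0.035 over all genes. Of the members 7 differed by less than 0.05 either way, or 77.8%, as did 64.8% of all genes. The 2 exceptions, Sox4 and Foxd3, both had higher signals in narrow pools.

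**Figure D1:**
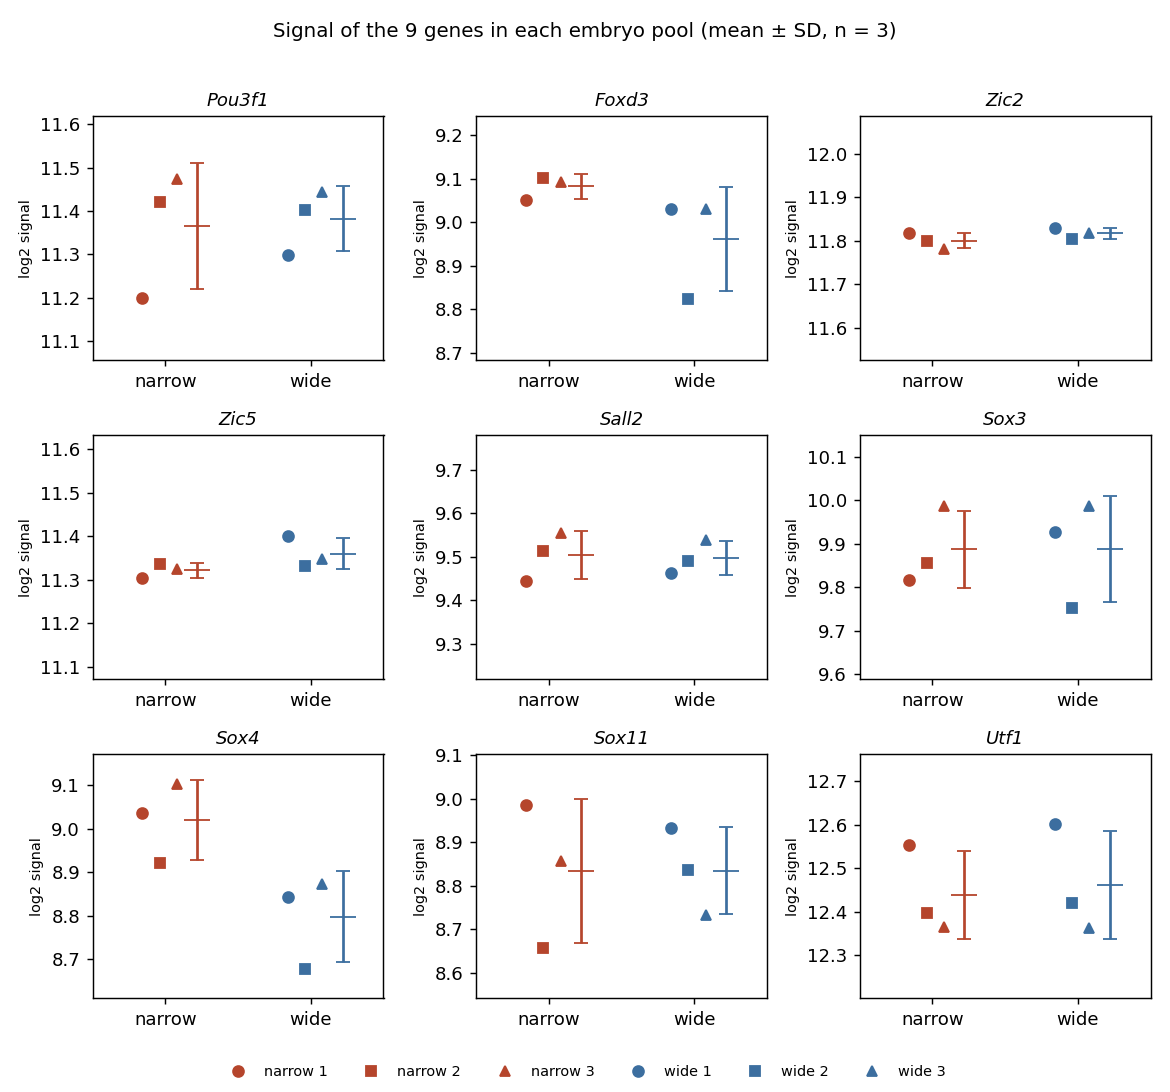
Log2 signal (vertical axes, each spanning the same width) of the 9 genes in the narrow pools (left, red) and wide pools (right, blue). Circles, squares and triangles are the pools numbered 1, 2 and 3, and bars show the mean and SD of 3 pools. Only Sox4 and Foxd3 have all 3 narrow pools above all 3 wide pools.

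Sox4, Sox11 and their relative Sox12 form the SoxC group, HMG box factors known for roles in progenitor cells of many tissues. Sox4 had the largest difference of the 9 genes. Its log2 signal was 9.04, 8.92 and 9.10 in narrow 1, 2 and 3, against 8.84, 8.68 and 8.87 in wide 1, 2 and 3. The narrow pools all lay above the wide ones, with a gap of 0.049 between the lowest narrow pool and the highest wide pool. Means were 9.02 ± 0.09 in narrow and 8.80 ± 0.10 in wide pools (SD, n = 3 each). The difference of 0.22 ± 0.07 (SE, 95% interval 0.067 to 0.38) corresponds to a 1.17-fold higher signal in narrow pools. It did not pass over all genes (limma adjusted p = 1.00, unadjusted p = 0.0109). Between same-numbered pools the difference was 0.19, 0.24 and 0.23. By size of difference Sox4 ranked 94th among all genes, so 0.466% of genes had a larger one, and by p it ranked 120th. In 6 fits that each lacked 1 array the difference ran from 0.16 to 0.27, the lowest being that without wide 2. Unadjusted limma p in these fits ran from 0.00563 to 0.0423. Wide 2 had the lowest signal of the 6 arrays for Sox4, and also for Foxd3. A test per gene with unequal variances gave an unadjusted p of 0.0515, and the exact permutation test gave p = 0.1, the smallest it allows.

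Sox11 had signals of 8.99, 8.66 and 8.86 in narrow pools, against 8.93, 8.84 and 8.73 in wide pools. The groups overlapped throughout their range, with narrow 1 highest and narrow 2 lowest of all 6. The means were 8.83 ± 0.17 in narrow and 8.83 ± 0.10 in wide pools (SD, n = 3 each). The difference was -0.001 ± 0.09 (SE), with a 95% interval from -0.20 to 0.20, the widest among the 9 genes, so a shift as large as that of Sox4 lies just outside it. Same-numbered pools differed by 0.05, -0.18 and 0.12. Sox12 stood at 0.03 ± 0.13 (SE), with an interval from -0.28 to 0.33. Whether Sox4 differed from its relatives in its response was not tested.

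The promoters of the SoxC pair are shown because one gene had the largest difference of the set and the other one of the smallest. Both are from RefSeq on GRCm38.p6 and run 5′ to 3′ along the gene, from 250 bases before the annotated start to 50 bases after it. Sox4 lies on the minus strand at chr13:28953650-28953949 and Sox11 on the minus strand at chr12:27342669-27342968. Capitals mark CCAAT boxes on either strand, read as CCAAT or ATTGG.
Sox4: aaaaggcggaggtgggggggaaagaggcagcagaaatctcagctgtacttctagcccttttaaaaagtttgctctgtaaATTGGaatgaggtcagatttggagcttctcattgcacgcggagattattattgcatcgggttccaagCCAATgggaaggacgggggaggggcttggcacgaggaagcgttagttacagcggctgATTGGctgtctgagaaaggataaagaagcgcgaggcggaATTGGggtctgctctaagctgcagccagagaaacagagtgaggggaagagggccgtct
Sox11: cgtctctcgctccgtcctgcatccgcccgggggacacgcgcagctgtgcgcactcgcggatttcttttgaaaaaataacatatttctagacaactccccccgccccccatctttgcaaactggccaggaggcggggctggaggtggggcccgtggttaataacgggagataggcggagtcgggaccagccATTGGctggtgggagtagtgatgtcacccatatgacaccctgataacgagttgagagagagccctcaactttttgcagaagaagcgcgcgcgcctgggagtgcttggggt
The Sox4 window held 4 CCAAT boxes, beginning 171, 104, 47 and 8 bases before the start. The Sox11 window held 1, beginning 60 bases before it. At least 1 CCAAT box was found in 37.41% of 32851 promoter windows of the same length. The letters GGAATG, the core recognised by TEAD factors, were found once in the Sox4 window on the gene's own strand, 168 bases before the start, overlapping the first CCAAT box. They were not in the Sox11 window, but were in that of Zic5 on the opposite strand, 165 bases before the start. Zic5 differed by -0.04 between cavities. Either strand held these letters in 14.66% of windows. GC boxes, GGGCGG on either strand, occurred in the Sox11 window and not in that of Sox4, and in 35.66% of all windows. The Sox4 window had 12 CpG and a GC content of 52.0%, that of Sox11 21 CpG and 58.7%, beside medians of 7 CpG and 52.7% over all windows. Motifs were chosen with the expression values known, and a match describes letters only.

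Foxd3, a forkhead repressor that the epiblast needs to persist after implantation, had the second largest difference. Its signal was 9.05, 9.10 and 9.09 in narrow pools, against 9.03, 8.82 and 9.03 in wide pools. The groups did not overlap, but narrow 1 exceeded the highest wide pool by 0.019 only, and wide 2 was the lowest of the 6 arrays. Means were 9.08 ± 0.03 in narrow and 8.96 ± 0.12 in wide pools (SD, n = 3 each). The difference of 0.12 ± 0.06 (SE, 95% interval -0.02 to 0.26) did not pass (limma adjusted p = 1.00, unadjusted p = 0.0893). Without wide 2 it was 0.05, the lowest of the fits that left out 1 array, and the highest was 0.15. Same-numbered pools differed by 0.02, 0.28 and 0.06. Of all genes 5.74% had a larger difference in either direction.

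Its promoter, at chr4:99656049-99656348 on the plus strand of GRCm38.p6 from RefSeq, is shown because Foxd3 was the other gene whose groups did not overlap. Capitals mark a cAMP response element, TGACGTCA, and an E-box, CACGTG.
Foxd3: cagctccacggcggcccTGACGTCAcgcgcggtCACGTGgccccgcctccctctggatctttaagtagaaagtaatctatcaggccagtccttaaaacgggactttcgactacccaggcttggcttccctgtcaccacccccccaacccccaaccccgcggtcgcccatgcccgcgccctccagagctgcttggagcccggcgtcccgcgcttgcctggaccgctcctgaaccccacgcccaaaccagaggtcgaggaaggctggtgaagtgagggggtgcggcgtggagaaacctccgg
The first begins 233 and the second 217 bases before the start, and they do not overlap. Either strand held TGACGTCA in 1.79% and CACGTG in 7.15% of all promoter windows, and neither was in the windows of Sox4 or Sox11. No CCAAT box, GC box, TATA box (TATAAA) or octamer (ATGCAAAT) was found in the Foxd3 window. It held 25 CpG and had a GC content of 65.7%. Of the 9 genes, 6 had a promoter in the table.

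Counted over the 9 genes, 2 had groups that did not overlap, both higher in narrow pools, where 7.7% of all genes did not overlap and 4.17% did so in this direction. Having no overlap, these 2 genes were bound to be higher in narrow in all 3 same-numbered pairs, so this adds nothing to that count. No other member was higher in all 3 pairs, and 14.8% of all genes were. Zic2 was lower in narrow in all 3 pairs, at -0.012, -0.004 and -0.037. The share of all genes lower in all 3 pairs was not counted. With 9 genes each gene is 11.1% of the set.

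**Figure D2:**
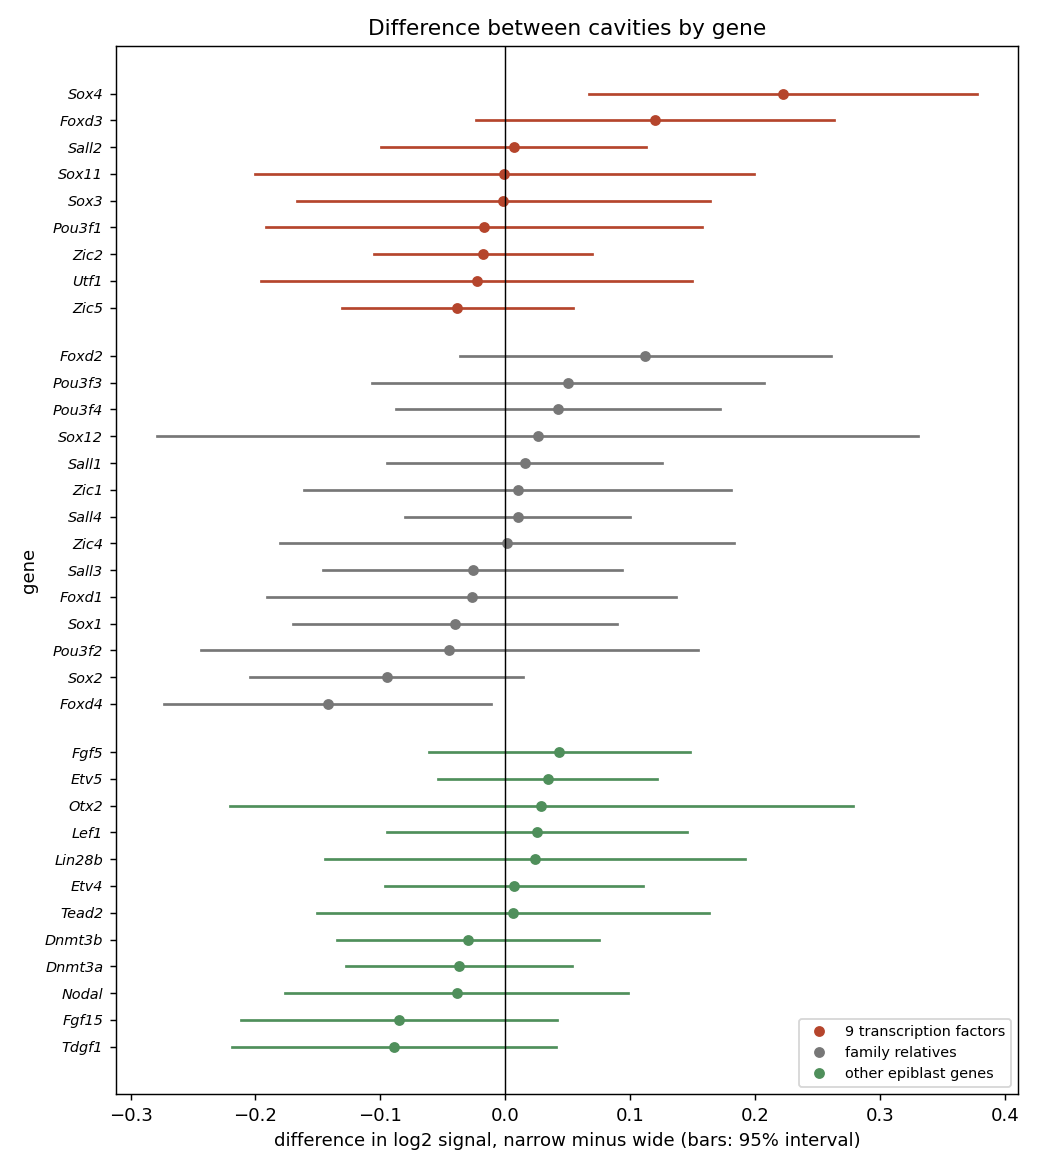
Difference in log2 signal, narrow minus wide, with its 95% interval from limma (horizontal axis) for the 9 genes (red), 14 family relatives (grey) and 12 other epiblast genes (green). The interval lies wholly above 0 for Sox4 and wholly below 0 for Foxd4, and all others include 0.

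Pou3f1, also called Oct6, is a POU factor that appears in the epiblast after implantation and is a common marker of that stage. Its signal was 11.20, 11.42 and 11.47 in narrow pools, against 11.30, 11.40 and 11.44 in wide pools. The pools numbered 1 were the lowest of their group in both cavities, and the groups overlapped. The difference was -0.02 ± 0.08 (SE, 95% interval -0.19 to 0.16). Its relatives, the neural POU factors Pou3f2, Pou3f3 and Pou3f4, had differences of -0.04 ± 0.09, 0.05 ± 0.07 and 0.04 ± 0.06 (SE).

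Zic2 and Zic5 encode zinc finger proteins of the Zic family, which act in the epiblast and in neural plate and crest. They are near neighbours on chromosome 14, with 1 annotated non-coding gene between them in RefSeq on GRCm38.p6. Zic2 was the steadiest of the 9 genes. Its signal was 11.82, 11.80 and 11.78 in narrow pools, against 11.83, 11.80 and 11.82 in wide pools, a range of 0.048 over all 6. The difference was -0.02 ± 0.04 (SE) with a 95% interval from -0.11 to 0.07. In linear terms a level in narrow pools below 0.930 or above 1.05 times that in wide pools lies outside this interval.

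Zic5 had signals of 11.30, 11.34 and 11.32 in narrow pools, against 11.40, 11.33 and 11.35 in wide pools. Wide 1 was the highest and narrow 1 the lowest, and the difference was -0.04 ± 0.04 (SE, 95% interval -0.13 to 0.05). Zic5 was the 1 member with 2 array features. The feature not used was dimmer, with signals from 8.99 to 9.12 where the one used ran from 11.30 to 11.40. It gave the same difference, -0.04 ± 0.04 (SE). Whether both features report the same transcript was not tested, and their places in the genome were not checked. The level given is thus that of the feature used. The Zic relatives Zic1 and Zic4 stood at 0.01 ± 0.07 and 0.00 ± 0.08 (SE).

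Sall2 encodes a zinc finger protein of the spalt family. Its signal was 9.44, 9.51 and 9.55 in narrow pools, against 9.46, 9.49 and 9.54 in wide pools. The groups covered nearly the same range, and the difference was 0.01 ± 0.05 (SE, 95% interval -0.10 to 0.11). The related Sall1, Sall3 and the pluripotency factor Sall4 stood at 0.02 ± 0.05, -0.03 ± 0.05 and 0.01 ± 0.04 (SE).

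Sox3 is an X-linked SoxB1 factor, a close relative of the pluripotency factor Sox2 and of the neural factor Sox1. Its signal was 9.82, 9.86 and 9.99 in narrow pools, against 9.93, 9.75 and 9.99 in wide pools. Narrow 3 and wide 3 were both highest in their group and nearly equal, and wide 2 was the lowest of the 6. The difference was -0.002 ± 0.07 (SE, 95% interval -0.17 to 0.16). Sox2 had signals of 10.85, 10.72 and 10.83 in narrow pools, against 10.90, 10.92 and 10.88 in wide pools, all narrow pools below all wide ones. Its difference of -0.09 ± 0.05 (SE, limma adjusted p = 1.00, unadjusted p = 0.0799) ran the other way from that of Sox4, and that of Sox1 was -0.04 ± 0.06.

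Utf1, a chromatin-bound factor of pluripotent cells, had a signal of 12.55, 12.40 and 12.36 in narrow pools, against 12.60, 12.42 and 12.36 in wide pools. The pools numbered 1 were the highest of their group in both cavities. The difference was -0.02 ± 0.07 (SE, 95% interval -0.20 to 0.15). Same-numbered pools lay closer together, with differences of -0.05, -0.02 and 0.00.

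The pools also varied by replicate number. Taking the mean of the narrow and the wide pool of each number, Utf1 had 12.58, 12.41 and 12.36 for numbers 1, 2 and 3, a range of 0.21, beside its cavity difference of -0.02. Pou3f1 had 11.25, 11.41 and 11.46, also a range of 0.21, beside -0.02. The direction in the pools numbered 1 thus differed, Utf1 being high and Pou3f1 low there. This range exceeded the size of the difference between cavities in 6 of the 9 genes, or 66.7%, and in 83.3% of all genes. A range of 3 means of 2 pools tends to exceed a difference of 2 means of 3 pools, so the count says nothing particular of the 9. It did not do so for Sox4, with a range of 0.19 beside 0.22, Foxd3, with 0.099 beside 0.12, and Zic5, with 0.017 beside 0.04. These are descriptions of 6 arrays, and the meaning of a replicate number is not stated in the labels.

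**Figure D3:**
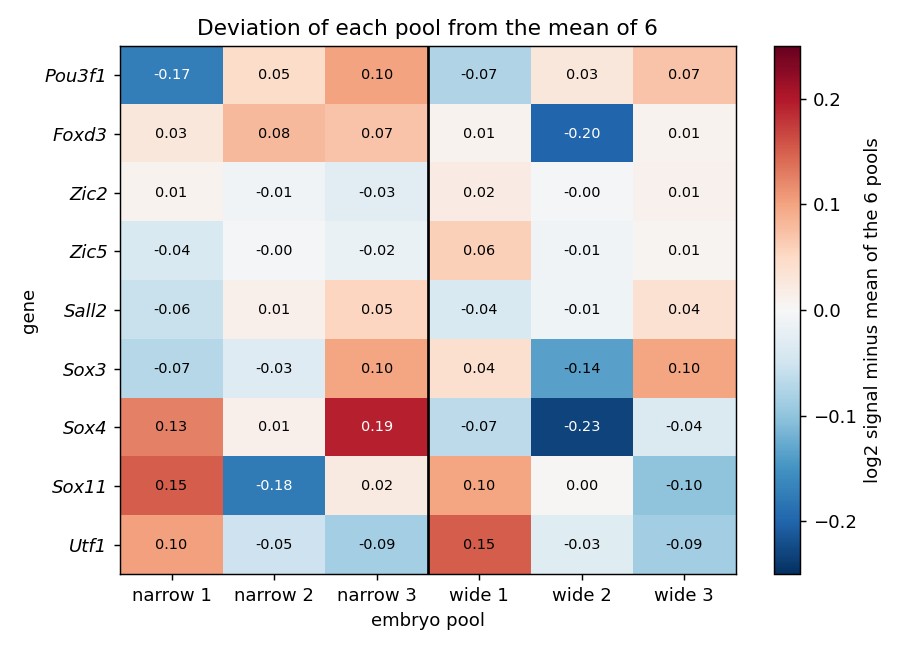
Log2 signal of each gene in each pool minus its mean over the 6 pools (colour and printed value), with narrow pools left of the line and wide pools right of it. Sox4 is lowest in wide 2 at -0.23 and highest in narrow 3 at 0.19, whereas Utf1 is high in both pools numbered 1, at 0.10 and 0.15.

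Among 14 family relatives 0 passed over all genes, with 8 positive and 6 negative differences and a median of 0.006. Only 5 of the 14 lay above the median signal of all genes, as all 9 members did. The 1 relative with an unadjusted limma p under 0.05 was Foxd4, from the forkhead family of Foxd3, at -0.14 ± 0.06 (SE, adjusted p = 1.00). Its signal was 6.34, 6.35 and 6.17 in narrow pools, against 6.41, 6.41 and 6.46 in wide pools, with no overlap. By mean signal it was the lowest of the 14, at percentile 20.8 of all genes. The difference was -0.08 without narrow 3, and its unadjusted p exceeded 0.05 without narrow 3 or any 1 of the wide pools, reaching 0.115. Foxd1 and Foxd2 stood at -0.03 ± 0.07 and 0.11 ± 0.06 (SE), so the Foxd genes did not share a sign.

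Of 12 other genes that mark the post-implantation epiblast, all measured, 0 passed, 0 had an unadjusted limma p under 0.05, and 7 had positive and 5 negative differences, with a median of 0.007 and a range from -0.09 to 0.04. The members with the smallest p were the Nodal co-receptor Tdgf1 at -0.09 ± 0.06, the growth factor Fgf15 at -0.09 ± 0.06, the growth factor Fgf5 at 0.04 ± 0.05 and the DNA methyltransferase Dnmt3a at -0.04 ± 0.04 (SE). All 3 narrow pools lay above all wide ones for 1 gene of the 12, where 4.17% of all genes did so. This was the ETS factor Etv5, named for this count after its values were seen. Its difference was 0.03 ± 0.04 (SE), with a gap of only 0.0038 between its groups. All 12 lay above the median signal of all genes.

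Of 11 naive pluripotency genes, 0 passed, with 7 positive and 4 negative differences and a median of 0.027. The smallest p were those of Esrrb, an orphan nuclear receptor that is also expressed in extraembryonic ectoderm, at -0.22 ± 0.04, and of the T-box factor Tbx3 at -0.09 ± 0.05 (SE). The difference of Esrrb had the size of that of Sox4 with the opposite sign. Its signal was 10.21, 10.26 and 10.18 in narrow pools, against 10.48, 10.44 and 10.39 in wide pools (limma adjusted p = 1.00, unadjusted p = 0.00107).

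**Figure D4:**
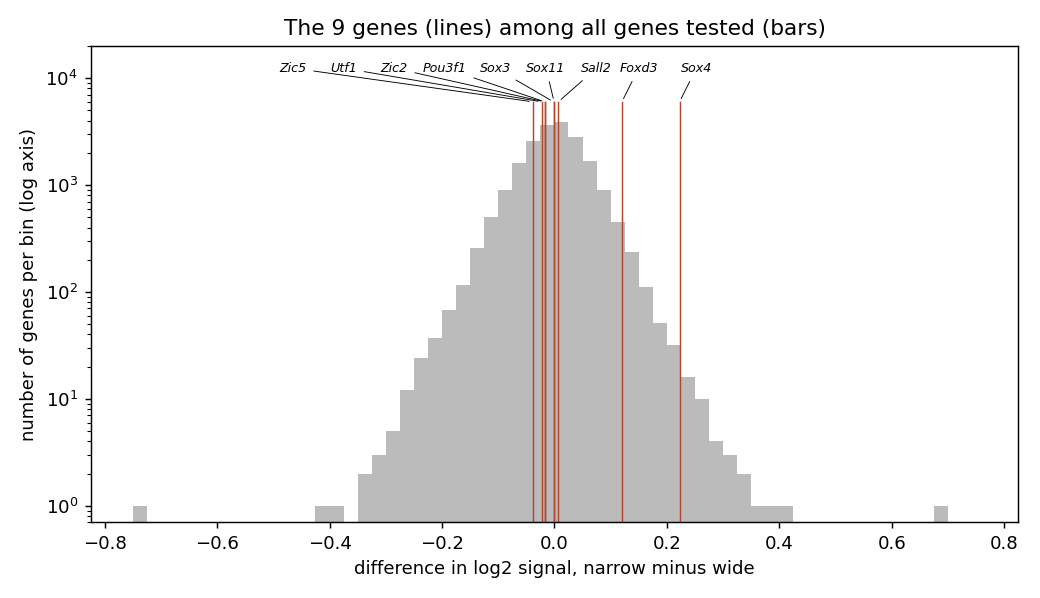
Number of genes (vertical log axis) by difference in log2 signal, narrow minus wide (horizontal axis, bins of 0.025), with the 9 genes as red lines. Foxd3 at 0.12 and Sox4 at 0.22 lie on the right flank of the 19938 genes and the other 7 near 0.

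Marker levels of the tissues in the pools were set beside the Sox4 values. The mean log2 signal of 10 visceral endoderm markers ran from 11.40 to 11.42 in narrow pools and from 11.33 to 11.40 in wide pools, with no overlap before rounding, in the same direction as Sox4. Of the 10, 6 had positive and 4 negative differences, and 0 passed. The transferrin gene Trf at 0.18 ± 0.05 and the endoderm factor Foxa2 at 0.13 ± 0.06 (SE) had the smallest p, and Rbp4 stood at 0.18 ± 0.09 (SE). The 4 negative ones were Ttr at -0.05, Cubn at -0.03, Amn at -0.02 and Apob at -0.002. The direction of the mean was thus not shared by the whole list. The mean of 5 epiblast markers ran from 10.95 to 11.06 in narrow and from 11.04 to 11.08 in wide pools, with 1 positive difference, 0 passing, and Sox2 and the homeobox factor Nanog (-0.16 ± 0.09) the 2 with the smallest p. The mean of 7 extraembryonic ectoderm markers ran from 10.95 to 11.06 in narrow and from 11.04 to 11.06 in wide pools, with 2 positive differences and 0 passing. The smallest p there were those of the BMP ligands Bmp4 at -0.21 ± 0.08 and Bmp8b at -0.09 ± 0.05 (SE). The 2 positive ones were Tfap2c at 0.09 ± 0.05 and Elf5 at 0.04 ± 0.04 (SE). The part of tissue make-up in the difference of Sox4 was not tested, and no list held a marker that could be called absent, as background was not measured.

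For each of the 9 genes the gene with the most similar profile was found as the one whose 6 signals, each minus their mean, had the smallest root mean square distance. The measure covers 6 arrays and all genes tested, and steady genes have near neighbours by their steadiness alone. A similar difference between cavities in the nearest gene follows from how that gene was picked. For Sox4 it was Efna5, an ephrin ligand, at a distance of 0.0288 and with a difference between cavities of 0.23. For Foxd3 it was Fam47e at 0.0064, for Pou3f1 Ino80d at 0.0106, for Utf1 Pak3 at 0.0123, for Sox11 Zfp101 at 0.022 and for Sox3 Zp4-ps at 0.0219. Sall2 was nearest to Ccnb2 at 0.00645, Zic2 to Plekha3 at 0.00475 and Zic5 to D16Ertd472e at 0.00517. None of the nearest genes was itself one of the 9. Among the 9, the member nearest to Sox4 was Foxd3, at 0.0797 with 173 genes nearer, and Zic2 and Zic5 were each other's nearest, at 0.025 with 1014 genes nearer to Zic2 and 397 nearer to Zic5. Sox11 and Utf1 were also each other's nearest, at 0.0747 with 611 genes nearer to Sox11 and 2267 nearer to Utf1.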

How the data were processed

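Total RNA of 6 pools of embryos was labelled with biotin for Affymetrix Mouse Gene 1.0 ST arrays, per the labels' protocols and the design text. The authors deposited 1 value per array feature and sample, on a log2 scale as read from the range. The sources used here do not give the software or the methods of background correction, summarization and normalization. Normalization between arrays removes changes in total RNA per embryo. Precision is limited by the number of arrays.

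Of 28853 features, 21789 named 1 gene in the platform annotation, 1621 several and 5443 none. For 999 genes with several features the brightest was used. Narrow minus wide was tested with limma 3.58.1 in R 4.3.3 (lmFit, eBayes, two-sided, no covariate, 6 arrays, 19938 genes, no filter), with Benjamini-Hochberg adjustment over all genes and 0.05 as the threshold. Intervals are those of the limma fit.

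The 9 genes and all lists were chosen with earlier results of these data known. Genes named were the 9, their measured relatives and the nearest profile of each of the 9. In the other epiblast genes the 4 with the smallest p were named, and in each further list up to 2. Further visceral endoderm and extraembryonic ectoderm markers were named after their values were seen. A fit with the replicate number as block was an alternative. Deviations from group means correlated at 0.516, 0.176 and 0.272 between arrays numbered 1, 2 and 3, and at 0.178 between narrow 2 and wide 3. The same-numbered values all exceed 0.1, so same-numbered samples were taken as pairs in that alternative and in the same-numbered differences given. The main fit had no pairs. For number 2 the value did not exceed that of narrow 2 and wide 3, so this rule does not set matched apart from unmatched pools there. Other alternatives were array centring, quantile normalization, bright genes only, every feature in the fit, the mean of features, eBayes with trend and robust, unequal variances, arrays numbered 2 and 3 only, and leaving out each array.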

Additional observations from a re-analysis of the deposited data

How the results depend on the processing

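By limma 0 of 9 members and 0 of all genes passed under each of the 15 alternatives, also with unequal variances per gene. Unadjusted p under 0.05 was found for 678 genes, for 1446 with the replicate block, for 384 among genes above the median signal, where fewer genes were tested, for 477 with unequal variances, and for 497 to 990 without single arrays. Sox4 was the 1 member among them in each case except unequal variances, where there was 0. With the replicate block the difference of Sox4 was 0.22 ± 0.03 (SE, limma adjusted p = 0.630), the median over the members stayed at -0.0016, and no call changed. The members' median ran from -0.0122 to 0.0333 without single arrays, highest without narrow 1, beside a spread between arrays of 0.0243. Members whose groups did not overlap numbered 2, and 3 with quantile normalization (8.33% of all genes), 3 with arrays numbered 2 and 3 only (33.3%), and 2 to 4 without single arrays, 4 without wide 2, where 14.5% to 20.4% of all genes did not overlap either. Fewer arrays per group make non-overlap more frequent in any gene, so counts from fewer arrays cannot be set against the main count. Of 135 values of the members, 117 kept their sign and 18, none called, did not. These were of Sox3 (-0.07 to 0.05), Sox11 (-0.08 to 0.09), Pou3f1 (-0.07 to 0.07), Sall2 (-0.02 to 0.04) and Utf1 (-0.08 to 0.05). Sox4 (0.16 to 0.27), Foxd3 (0.05 to 0.17), Zic2 and Zic5 kept theirs. Array background, which was not measured, limits features of low signal.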

Other observations

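Of 10 neural and neural crest markers 0 passed, 4 had positive differences and the median was -0.042, with the smallest limma p for the eye and brain factor Pax6 at -0.07 ± 0.05 and the tubulin gene Tubb3 at -0.08 ± 0.06 (SE). Of 7 decidua and stroma markers 0 passed and 3 were positive, with Vim at -0.09 ± 0.05 and Prl8a2 at -0.08 ± 0.06. Of 6 blood and macrophage markers 0 passed and 2 were positive. The smallest p there were those of Lyz2, a lysozyme of macrophages, at -0.41 ± 0.32, and of Csf1r at 0.04 ± 0.04. Lyz2 had signals of 6.58, 6.26 and 6.05 in narrow pools, against 6.07, 6.55 and 7.50 in wide pools, where wide 3 lay above the other 5 arrays. Its difference was -0.02 without wide 3 and -0.73 without wide 1.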
